A study of Arabidopsis thaliana with 36 samples.

Results

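Gene expression in whole rosettes of wild-type Arabidopsis thaliana (Col0) was compared between the end of a cold period and the second day after return to warmth. The comparison used the 3 libraries labelled Col0 Deacc2 and the 3 labelled Col0 ACC, 6 of the 36 libraries in the study, chosen by their labels alone. Plants entered the treatments at 28 days of age. ACC rosettes had spent 3 days at 4 °C under 90 µE of light. Deacc2 rosettes had the same cold period and then 2 days at 20 °C by day and 16 °C by night under 200 µE. The day length was 16 h in both. Never-chilled Col0 rosettes, harvested at 28 days from the warm regime before the cold (NonA, 3 libraries), and the same ACC and Deacc2 groups of the lines mbf1c and jub1 (3 libraries each) are used for reference. These lines are named after the coactivator gene MBF1C and the NAC factor gene JUB1, and the labels used here state no allele. Temperature and light changed together between ACC and Deacc2, and Deacc2 plants were also 2 days older, so these parts of the difference cannot be told apart. The labels number the replicates but do not say how their plants were grown apart, so p-values measure only the spread between samples. In a bulk rosette, fewer cells of a type and less RNA per cell cannot be told apart either.

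Deacclimation is the loss of freezing tolerance when temperate plants return from cold to growth temperature. In Arabidopsis, cold induces the CBF transcription factors, which bind the CRT/DRE element of cold-regulated genes, and cold also brings on the synthesis of protective proteins, soluble sugars, proline and flavonoids while growth slows. Return to warmth reverses much of this and lets elongation growth and full photosynthetic capacity resume.

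The 6 libraries held 23484886 to 63178347 gene counts, and 22315 to 22918 genes were detected in each. ACC replicate 3, the deepest library, stood apart from the other ACC libraries. Its Spearman correlation with the Deacc2 libraries was 0.896 to 0.929, against 0.828 to 0.896 for ACC replicates 1 and 2. Within ACC the correlations were 0.974 to 0.993, and within Deacc2 0.941 to 0.978. Deacc2 replicates 2 and 3 deviated more from the other libraries of their own group. The SD over genes of the log2 deviation from the mean of the other libraries was 0.734 and 0.755, against 0.62 for ACC replicate 3. Many counts below are therefore also given without ACC replicate 3, and some are given only without other libraries. Expression also followed transcript length differently. For each library, log2 CPM (CPM, counts scaled to library size) was taken as a deviation from the gene's mean over all 36 libraries. Per doubling of exonic length, this deviation had slopes of 0.457, 0.348 and 0.269 in ACC replicates 1 to 3. In Deacc2 replicates 1 to 3 the slopes were 0.152, 0.471 and −0.281. The leaf genes for Rubisco and the light-harvesting proteins were abundant in all 6 libraries. Of 13 floral organ markers, 5 passed the filter on low counts, and their summed level was 1.21 to 1.48 CPM at ACC and 1.1 to 2.21 CPM at Deacc2. Of 14 root markers, 5 passed, with summed levels of 44.8 to 61.2 CPM and 39.4 to 63.8 CPM. MS1, SPL and SUP of the floral list and PLT1, PLT2, RHD6 and RSL4 of the root list had no count in any of the 6 libraries. Members of other lists, such as LHCB1.5 (antenna) and MYC2 (jasmonate), had none either, so zeros were not particular to markers of other organs.

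Of 20679 genes tested with edgeR's quasi-likelihood test, 8568 (41.4%) were called at a Benjamini-Hochberg adjusted p under 0.05, of which 4505 (21.8%) rose and 4063 (19.6%) fell from ACC to Deacc2. These calls changed by at least 2-fold in 3355 rises (16.2%) and 2988 falls (14.4%), and by at least 16-fold in 139 rises (0.672%) and 81 falls (0.392%). The 3 libraries of each group did not overlap for 10916 genes (52.8%). The median log2 difference over all tested genes was 0.0085. Without ACC replicate 3, 8231 genes were called, 4174 higher and 4057 lower. Leaving out another single library left fewer calls, from 6233 (ACC replicate 1) to 8017 (Deacc2 replicate 2). The gene lists below are read against the shares of 21.8% and 19.6% and against that median; every difference is Deacc2 minus ACC on the log2 scale unless another is named, with its standard error.

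**Figure D1:**
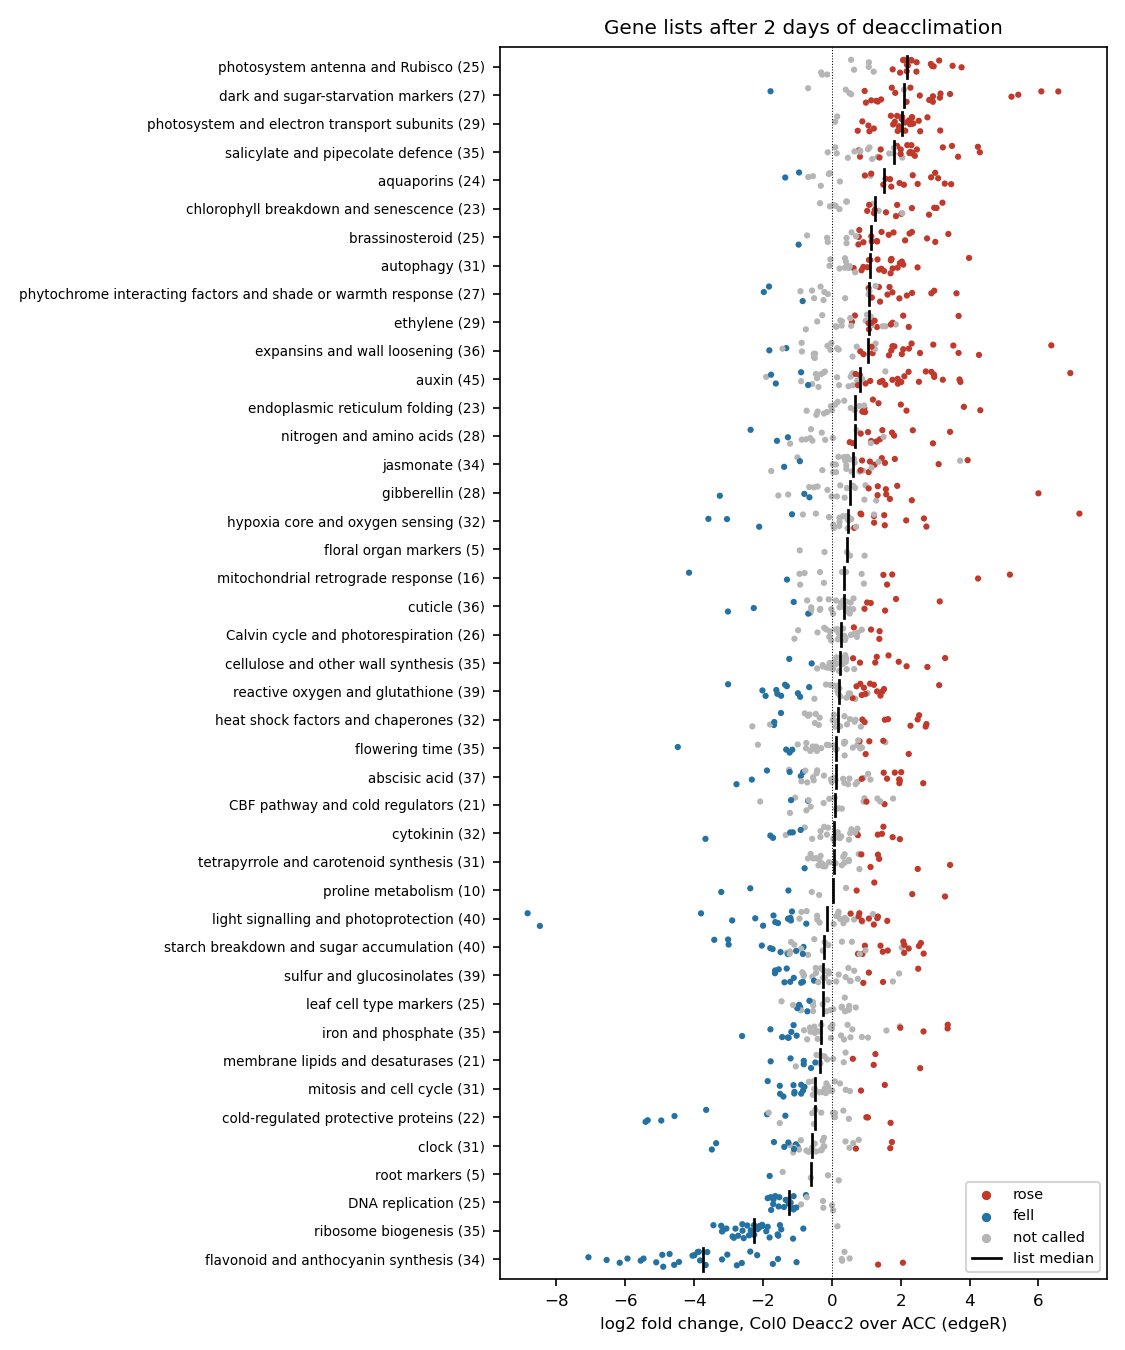
Log2 differences of Deacc2 against ACC in Col0 for the tested members of the gene lists (1 point a gene, coloured by its edgeR call; the bar is the list's median). Lists of photosystem genes and of sugar-starvation markers lie to the right, with medians of 2.03 and 2.1, and flavonoid synthesis, ribosome biogenesis and DNA replication lie to the left, with medians of −3.75, −2.26 and −1.25.

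Genes of several proteins that protect cells in freezing fell steeply within 2 days, although the list as a whole divided. Of 22 cold-regulated protective protein genes, 7 fell, 3 rose and 12 were not called, with a median of −0.50 (2 rises, 7 falls and a median of −0.10 without ACC replicate 3; a median of −0.24 without Deacc2 replicate 2; 1 rise without ACC replicate 1 or without Deacc2 replicate 3). LTI30, a dehydrin gene, was at 206, 177 and 231 CPM at ACC and 7.01, 2.94 and 9.84 CPM at Deacc2. All Deacc2 libraries lay far below all ACC libraries, and the difference was −4.96 ± 0.60 (adjusted p = 3.9e-07). COR15A, whose product stabilises chloroplast membranes during freezing, was at 3975, 5396 and 5809.7 CPM at ACC and 91.7, 12.3 and 268 CPM at Deacc2, the largest loss of mean CPM of any gene (−5.35 ± 1.09). Its tandem neighbour COR15B fell by 4.57 on the log2 scale, and 29.5% of its exonic bases are shared with a gene on the opposite strand, whose reads the unstranded counts cannot separate. RD29A, a stress-responsive gene long used as a CBF target, was at 2046, 1261 and 1734.6 CPM at ACC and 139, 114 and 148 CPM at Deacc2 (−3.65 ± 0.61). ERD10, another dehydrin gene, fell less, with 791, 458 and 833 CPM at ACC and 194, 121 and 250.1 CPM at Deacc2 (−1.88 ± 0.34). The Deacc2 levels were near those of plants never chilled: LTI30 was at 4.26 ± 2.11 CPM (SD, n = 3) at NonA, COR15A at 159.8 ± 20.9, RD29A at 107 ± 55.3 and ERD10 at 172 ± 26. GRP8, a clock-regulated RNA-binding protein gene, rose instead, from 112, 101 and 117 CPM to 247, 202 and 233 CPM (1.05 ± 0.22). CSDP1, a cold shock domain protein gene, fell (−1.35 ± 0.19).

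The CRT/DRE core CCGAC, searched on both strands (CCGAC or GTCGG) in the 250 bases before the annotated gene start, was present in 7 of the 22 cold-regulated genes (31.8%) and in 12.9% of all 20546 windows. Here and in later passages that print windows, the list is the one where the element was most frequent, among lists with at least 15 windows. For CCGAC the membrane lipid list came next (28.6%). The windows of LTI30 (TAIR10.1, chr3:18940393-18940642, plus strand) and RD29A (chr5:21240467-21240716, plus strand) are shown because both genes are among the leading falls and each holds 3 such cores, in capitals. The windows were cut from the RefSeq reference genome and are written 5′ to 3′ on the gene's strand.
LTI30: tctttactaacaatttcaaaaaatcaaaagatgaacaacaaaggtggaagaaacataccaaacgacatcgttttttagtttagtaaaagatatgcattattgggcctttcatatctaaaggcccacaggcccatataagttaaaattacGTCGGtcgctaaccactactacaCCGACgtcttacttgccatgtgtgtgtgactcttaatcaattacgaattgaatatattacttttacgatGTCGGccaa
RD29A: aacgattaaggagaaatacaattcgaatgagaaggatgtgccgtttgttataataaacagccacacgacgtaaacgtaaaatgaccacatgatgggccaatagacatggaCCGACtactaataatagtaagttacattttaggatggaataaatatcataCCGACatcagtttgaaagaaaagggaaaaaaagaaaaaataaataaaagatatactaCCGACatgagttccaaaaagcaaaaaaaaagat
The cores of LTI30 began 101, 78 and 9 bases before the gene start and those of RD29A 140, 90 and 33 bases before it. Such a match is a run of letters and not a measured binding site.

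Few of the upstream regulators were called. Of 21 tested genes of the CBF pathway and its regulators, 2 rose and 2 fell, below the shares over all genes. MPK6, a stress-activated protein kinase gene, rose from 30.6, 29 and 37.4 CPM to 48.4, 80.2 and 66.3 CPM (1.01 ± 0.22). OST1, the kinase gene of abscisic acid and cold signalling, fell from 19.4, 21.4 and 12.1 CPM to 8.28, 8.19 and 6.77 CPM (−1.18 ± 0.28), and ICE1, an upstream activator of the CBF genes, fell by a smaller amount (−0.69 ± 0.17). AZF1, a zinc finger repressor gene, rose (1.53 ± 0.56), but was not called without ACC replicate 1 (1.34), ACC replicate 2 (1.21) or Deacc2 replicate 3 (1.21). The CBF genes themselves lie outside the naming rule and were looked up by their place in the pathway: DREB1A was at 11.4, 8.43 and 8.76 CPM at ACC and 6.02, 1.82 and 10.8 CPM at Deacc2, and neither it nor DREB1B or DREB1C was called (adjusted p = 0.41, 0.88 and 0.95). Among membrane lipid genes, 4 of 21 rose and 6 fell (6 without ACC replicate 3, 3 without Deacc2 replicate 3). FAD8, the plastid omega-3 desaturase gene known for its low-temperature isoform, fell from 126, 120.0 and 99.7 CPM to 36.3, 47.5 and 16.9 CPM (−1.78 ± 0.41), and FAD4 fell by 1.2 on the log2 scale. ADS1, a fatty acid desaturase gene, rose from 0.786, 0.525 and 1.12 CPM to 7.1, 2.86 and 4.81 CPM (2.57 ± 0.64), and PDAT1, an enzyme gene of storage lipid synthesis, rose by 1.22.

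Genes of starch and sugar metabolism changed in both directions. Of 40 members, 13 rose and 11 fell (13 and 10 without ACC replicate 3), and 16 were not called. BAM3, the main chloroplast beta-amylase gene of leaves at night, was at 1098, 929.6 and 748 CPM at ACC and 110.4, 173 and 59.5 CPM at Deacc2 (−3.02 ± 0.55), with 25.2% of its exonic bases shared with an opposite gene. The debranching enzyme gene ISA3 fell by 2.04 and the glucan phosphatase gene SEX4 by 1.72 on the log2 scale. GPT2, a chloroplast glucose 6-phosphate translocator gene, was at 239, 301 and 65.6 CPM at ACC and 19.2, 20.9 and 35.6 CPM at Deacc2, and the tonoplast sugar importer gene TMT2 fell from 111, 103 and 102 CPM to 47, 38.1 and 27.4 CPM (−1.49 ± 0.35). Sugar transporter genes were among the rises. ERDL6, a vacuolar glucose exporter gene, was at 9.68, 9.84 and 18.3 CPM at ACC and 71.6, 90 and 57.2 CPM at Deacc2 (2.53 ± 0.29). The plasma membrane monosaccharide symporter gene STP1 rose from 18.4, 18.7 and 51.8 CPM to 172, 244 and 149 CPM (2.67 ± 0.44), and STP4 and STP13 rose by 1.41 and 1.62. VAC-INV, a vacuolar invertase gene, rose by 2.11.

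Most genes in the list of darkness and sugar starvation markers rose. Many of its members, though not all, are induced when sugar supply to the cell is low. Of 27 members 21 rose and 1 fell, with a median of 2.1 (19 rises and 1.82 without ACC replicate 3). SEN1, a senescence- and dark-induced gene, was at 0.14, 0.197 and 0.844 CPM at ACC and 57.7, 52.1 and 15.1 CPM at Deacc2 (6.58 ± 0.79, adjusted p = 3.7e-07). BXL1, a beta-xylosidase gene repressed by sugars, was at 0.954, 1.44 and 4.51 CPM at ACC and 137, 259 and 83.9 CPM at Deacc2 (6.09 ± 0.57). DIN10, a raffinose synthase family gene induced in the dark, was at 1.71, 2.03 and 4.53 CPM at ACC and 128, 191 and 39.7 CPM at Deacc2 (5.42 ± 0.72). In all 3 genes every Deacc2 library lay above every ACC library, and Deacc2 replicate 3 was the lowest of its group. ASN1, the asparagine synthetase gene that marks low carbon, rose from 3.28, 4.4 and 3.63 CPM to 44.4, 55.5 and 22.1 CPM (3.43 ± 0.57), and AKINBETA1, a subunit gene of the energy-sensing kinase SnRK1, rose by 3.14. TPS5, a trehalose phosphate synthase family gene, was the member that fell, from 105, 111 and 46.5 CPM to 22.2, 35 and 18.8 CPM (−1.78 ± 0.47). The summed level of the list was 801, 720.1 and 749 CPM at ACC, 1893, 2132 and 1419 CPM at Deacc2 and 908, 1216 and 804 CPM at NonA. The median log2 difference from NonA to Deacc2 was 0.86, and no member was called in that comparison.

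The I-box core GATAAG (or CTTATC on the other strand), a sequence found in light-regulated promoters, was present in 10 of 27 starvation marker windows (37%) and in 12.3% of all windows. This list was picked for its share, and the photosystem and electron transport list came next (27.6%). SEN1 (TAIR10.1, chr4:16944628-16944877, plus strand) is shown as the leading member, with its 2 matches in capitals.
SEN1: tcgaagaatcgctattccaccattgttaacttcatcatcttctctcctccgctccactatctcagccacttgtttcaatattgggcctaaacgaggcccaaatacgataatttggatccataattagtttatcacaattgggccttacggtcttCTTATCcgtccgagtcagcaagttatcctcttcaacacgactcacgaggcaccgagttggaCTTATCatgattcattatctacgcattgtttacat
Both matches read CTTATC on the gene's strand, beginning 96 and 35 bases before the gene start.

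In proline metabolism, genes for 2 synthesis enzymes fell and both proline dehydrogenase genes rose. Of 10 members 4 rose and 3 fell, the same counts as without ACC replicate 3. P5CS2, an isoform of the rate-limiting enzyme of proline synthesis, was at 551, 476 and 454 CPM at ACC and 85.2, 134 and 67.2 CPM at Deacc2 (−2.37 ± 0.40), and P5CR, for the second enzyme, fell by 1.26 on the log2 scale. P5CS1, the other isoform, was at 267, 322 and 241 CPM at ACC and 213, 199.5 and 140.09 CPM at Deacc2 and was not called (−0.58 ± 0.56, adjusted p = 0.42). PRODH1, the main mitochondrial proline dehydrogenase gene, was at 12.1, 14.4 and 13.9 CPM at ACC and 53.6, 96 and 54.2 CPM at Deacc2 (2.34 ± 0.47), and PRODH2 rose from 0.533, 0.623 and 0.488 CPM to 5.34, 6.44 and 4.23 CPM (3.29 ± 0.55). The proline transporter gene PROT3 fell from 11.1, 12.9 and 4.0 CPM to 1.29, 0.879 and 0.83 CPM (−3.21 ± 0.56). Among genes of nitrogen and amino acids, 13 of 28 rose and 3 fell (7 rises without ACC replicate 1 or 2, and 8 without Deacc2 replicate 2). The glutamate dehydrogenase gene GDH1 rose from 5.28, 7.22 and 10.3 CPM to 51.1, 80 and 43.6 CPM (2.94 ± 0.37), LBD37, a repressor of nitrate-responsive genes, rose by 2.35, and the amino acid transporter gene LHT1 by 1.75. The phloem nitrate transporter gene NRT1.7 fell from 249.5, 252 and 257 CPM to 106, 79.2 and 66.5 CPM (−1.59 ± 0.23), and the ammonium transporter gene AMT1;2 by 2.36 on the log2 scale.

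**Figure D2:**
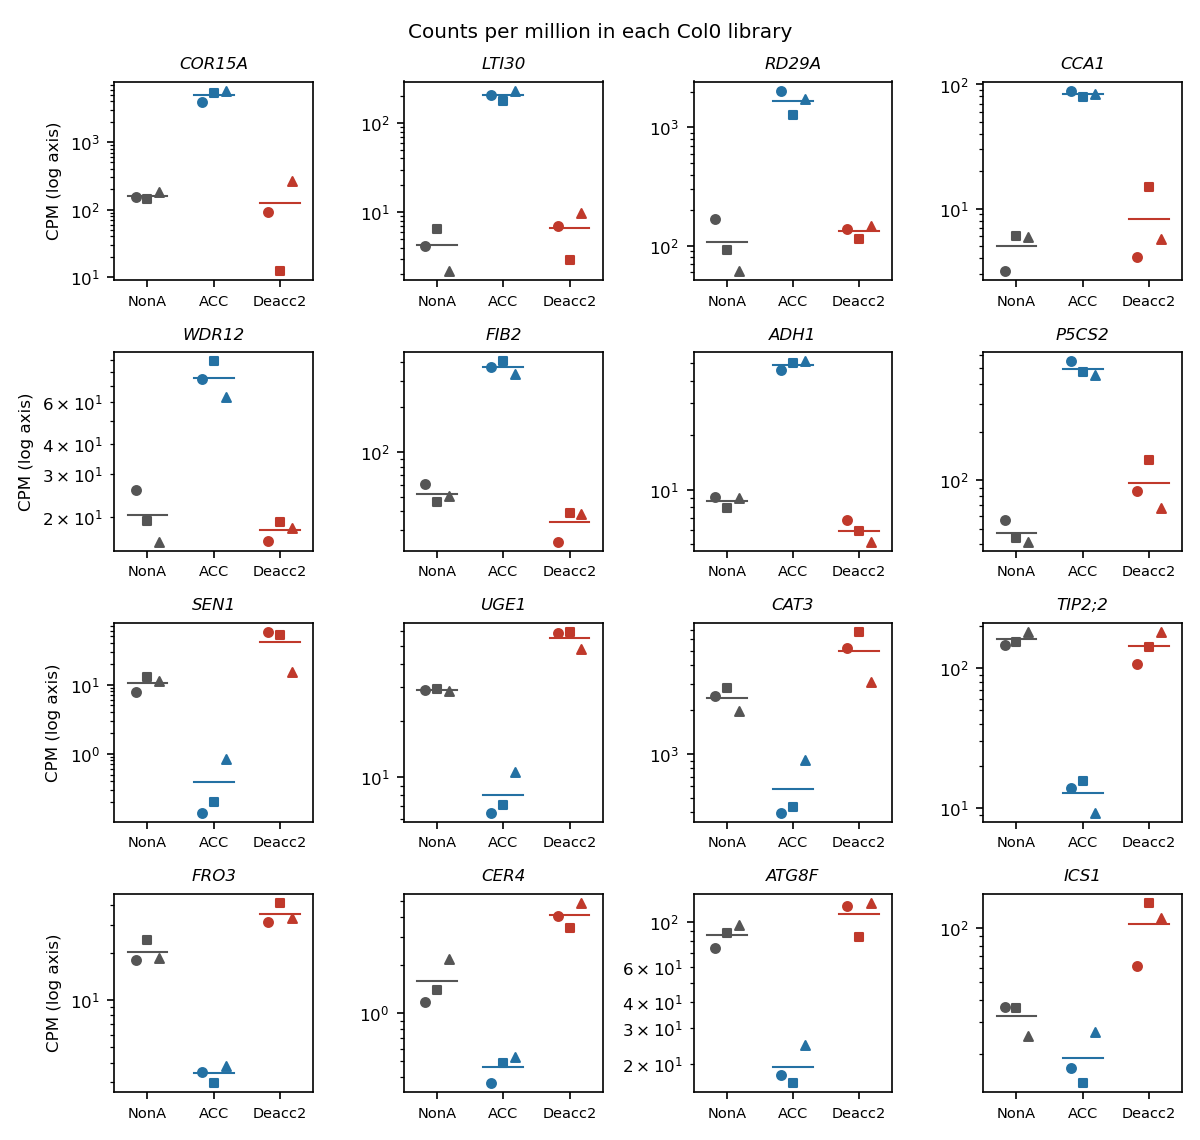
CPM of selected genes in each of the 3 ACC, 3 Deacc2 and 3 NonA libraries of Col0, on log axes (1 point a library, its shape giving the replicate number, and a line at the mean). SEN1 lies at 0.14, 0.197 and 0.844 CPM at ACC and at 57.7, 52.1 and 15.1 CPM at Deacc2, and LTI30 lies at 206, 177 and 231 CPM at ACC and at 7.01, 2.94 and 9.84 CPM at Deacc2.

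Most nuclear genes of the photosystems and of the antenna and Rubisco list rose, and few Calvin cycle genes were called. Of 29 photosystem and electron transport subunit genes 27 rose and none fell (median 2.03, 2.58 without ACC replicate 3). Of 25 antenna and Rubisco genes 17 rose and none fell (median 2.17; 19 rises and 3.01 without it). Rises in this list numbered 16 in the test against 1.5-fold and 10 to 19 over the other alternative runs, which are listed at the end. Of 26 Calvin cycle and photorespiration genes 4 rose, below the share over all genes (median 0.27, 0.059 without Deacc2 replicate 2), and none of the 4 (CP12-1, GLYK, GOX3 and GAPA-2) was called without ACC replicate 1. PSAD-2, a stromal subunit gene of photosystem I, was at 84.5, 100.3 and 386 CPM at ACC and 1506, 1911 and 1648 CPM at Deacc2 (3.15 ± 0.52). LHCB5, for a minor antenna protein of photosystem II, was at 918, 1073 and 3093 CPM at ACC and 7751, 7946 and 7789 CPM at Deacc2 (2.21 ± 0.43). In both genes ACC replicate 3 was the highest ACC library and still lay below every Deacc2 library. LHCB4.2, for another minor antenna protein, rose from 154, 182 and 759 CPM to 2685, 3584 and 3229.6 CPM (3.12 ± 0.60). The Rubisco small subunit gene RBCS3B rose from 579.7, 629 and 1248 CPM to 4915, 7783 and 5343 CPM (2.88 ± 0.40), and its near-identical relatives may share reads with it.

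The largest gains of mean CPM were those of LHCB1.3 and RBCS1A, which were not called. LHCB1.3, a gene of the main antenna protein, was at 6302, 6252 and 22069.7 CPM at ACC and 21756, 29230.2 and 29371 CPM at Deacc2 (1.21 ± 0.54, adjusted p = 0.072). RBCS1A, the most abundant Rubisco small subunit gene, was at 14902, 13175 and 28162 CPM at ACC and 15824, 36746 and 30261 CPM at Deacc2 (0.56 ± 0.45, adjusted p = 0.33). ACC replicate 3 lay above the other ACC libraries by a wide margin in both. Without that library LHCB1.3 differed by 2.07 (adjusted p = 0.0064). The 10 genes with the largest gains held 18.3% of the summed gain in CPM over all genes, and the 10 with the largest losses held 8.81% of the summed loss. The summed level of the antenna and Rubisco list was 34895, 34036 and 99519 CPM at ACC and 120854, 187937 and 158282 CPM at Deacc2, so the level of ACC replicate 3 was closer to the lowest Deacc2 library than to the other ACC libraries. At NonA the sums were 136838, 202552 and 223305 CPM.

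The sugar element TATCCA (or TGGATA) was present in 9 of the 25 antenna and Rubisco windows (36%) and in 14.1% of all windows. This list was picked for its share, and the autophagy (32.3%) and photosystem subunit (31%) lists were close to it. LHCB5 (TAIR10.1, chr4:6407757-6408006, plus strand) is shown because it holds the element on both strands, in capitals, 32 and 18 bases before the gene start.
LHCB5: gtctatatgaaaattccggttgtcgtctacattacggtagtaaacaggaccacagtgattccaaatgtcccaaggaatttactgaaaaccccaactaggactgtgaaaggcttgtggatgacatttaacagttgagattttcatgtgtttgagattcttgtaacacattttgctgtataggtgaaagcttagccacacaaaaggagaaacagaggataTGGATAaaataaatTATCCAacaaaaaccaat

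Many genes of chlorophyll breakdown and senescence rose, while most genes of its synthesis were not called. Of 31 genes of tetrapyrrole and carotenoid synthesis 6 rose and 1 fell (9 rises without ACC replicate 3, 3 without ACC replicate 1 or 2; 3 falls without Deacc2 replicate 2). CCD4, a carotenoid cleavage dioxygenase gene, rose from 26, 32.1 and 134 CPM to 604, 709 and 764 CPM (3.43 ± 0.66), and the magnesium protoporphyrin methyltransferase gene CHLM from 90.4, 106 and 210.2 CPM to 337, 364 and 327 CPM (1.34 ± 0.32). Of 23 breakdown and senescence genes 13 rose and none fell (median 1.25; 12 rises without ACC replicate 3). PPH, for the pheophytinase that removes phytol from chlorophyll breakdown products, was at 23, 23.8 and 25.7 CPM at ACC and 92.5, 101 and 76.5 CPM at Deacc2 (1.9 ± 0.22), and PAO, for the ring-opening oxygenase, rose by 1.22. SGR2, of the STAY-GREEN proteins that act in chlorophyll breakdown, was at 1.26, 1.77 and 1.07 CPM at ACC and 9.13, 4.68 and 15.05 CPM at Deacc2 (2.82 ± 0.55). NAP, a NAC factor gene of leaf senescence, was at 1.52, 2.03 and 3.32 CPM at ACC and 14.5, 19.3 and 23.3 CPM at Deacc2 (3.04 ± 0.70). CYP89A9, whose enzyme acts on chlorophyll catabolites, was at 3.96, 5.28 and 8.05 CPM at ACC and 119, 159 and 159 CPM at Deacc2 and was among the 20 largest rises (4.65 ± 0.43). SAG12, a late senescence marker, lies outside the naming rule and was looked up for that role. It was at 0.477, 4.53 and 0.00 CPM at ACC and 5.58, 3.5 and 10.9 CPM at Deacc2 and was not called (adjusted p = 0.28).

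Protein synthesis genes moved the other way. Of 35 genes of ribosome biogenesis 34 fell and none rose (median −2.26; 34 falls without ACC replicate 3). FIB2, a nucleolar fibrillarin gene, was at 371, 407 and 332 CPM at ACC and 25, 39.1 and 38.2 CPM at Deacc2 (−3.44 ± 0.29), and WDR12, a gene for large-subunit assembly, was at 74.6, 88.8 and 63.3 CPM at ACC and 15.8, 19.1 and 18 CPM at Deacc2 (−2.1 ± 0.22). No ACC library overlapped a Deacc2 library in either gene. Genes whose annotated product is a ribosomal protein of any compartment followed, with 209 falls and 12 rises among 348 (median −1.0). Genes for PPR proteins, which bind organelle transcripts and help process them, fell in 174 of 278 cases and rose in 7 (median −1.26). Among genes with large losses of CPM, the translation elongation factor gene LOS1 was at 1975, 1974 and 1866 CPM at ACC and 624, 1116 and 417 CPM at Deacc2 (−1.43 ± 0.35), and SVR3, a chloroplast elongation factor gene, was at 1574, 1553 and 1366 CPM at ACC and 366, 385 and 269 CPM at Deacc2 (−2.14 ± 0.29). With a correction for transcript length the median of the ribosome biogenesis list was −2.14, with 34 falls.

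The site II core GGCCCA (or TGGGCC) was present in 22 of 35 ribosome biogenesis windows (62.9%) and in 16.3% of all windows, and the telo-box AAACCCTA (or TAGGGTTT) in 6 of them (17.1%) and in 3.69% of all. This list was picked for its shares. DNA replication came next for site II (44%) and the mitochondrial retrograde response for the telo-box (12.5%). Over all calls, site II cores were found in 24.0% of genes that fell and 11.6% of genes that rose, and telo-boxes in 6.40% and 1.82%. WDR12 (TAIR10.1, chr5:5062145-5062394, minus strand) is shown for the site II core and NOP58 (chr5:9540611-9540860, plus strand), a gene of the small nucleolar RNA-protein complexes, for the telo-box, with the matches in capitals.
WDR12: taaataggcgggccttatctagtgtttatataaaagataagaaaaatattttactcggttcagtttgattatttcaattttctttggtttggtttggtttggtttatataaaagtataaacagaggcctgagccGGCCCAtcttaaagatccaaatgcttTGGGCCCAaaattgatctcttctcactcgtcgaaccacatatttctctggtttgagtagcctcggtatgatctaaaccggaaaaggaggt
NOP58: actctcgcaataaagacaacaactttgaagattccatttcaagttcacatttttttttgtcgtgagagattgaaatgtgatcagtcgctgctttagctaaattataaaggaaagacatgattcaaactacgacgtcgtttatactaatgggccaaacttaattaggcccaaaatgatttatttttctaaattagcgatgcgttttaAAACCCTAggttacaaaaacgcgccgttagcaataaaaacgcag
In WDR12 the matches began 116, 90 and 88 bases before the gene start, the last 2 overlapping on opposite strands, and in NOP58 the match began 44 bases before it.

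Most DNA replication genes fell, and part of the mitosis genes fell as well. Of 25 DNA replication genes 18 fell and none rose (median −1.25; 17 falls without ACC replicate 3, and 11 without Deacc2 replicate 3). The falls numbered 9 in the test against 1.5-fold and 2 to 21 over the other alternative runs, so this count depended strongly on the run. MCM3, a subunit gene of the replicative helicase, was at 45.6, 35.1 and 23.6 CPM at ACC and 11.7, 13.9 and 7.6 CPM at Deacc2 (−1.65 ± 0.45), and RPA70B, for a single-strand binding protein, fell by 1.7 on the log2 scale. E2FA, a transcription factor gene for entry into S phase, was at 15.4, 11.5 and 15 CPM at ACC and 5.6, 7.59 and 4.38 CPM at Deacc2 (−1.25 ± 0.26). Of 31 mitosis and cell cycle genes 11 fell and 2 rose (median −0.49), but the falls were 5 without ACC replicate 1, 6 without Deacc2 replicate 2 and 7 without Deacc2 replicate 3. Mitosis falls numbered 3 in the test against 1.5-fold and 2 to 15 over the other alternative runs. CDC20.2, an activator gene of the anaphase-promoting complex, was at 4.88, 4.49 and 4.01 CPM at ACC and 1.9, 1.42 and 1.38 CPM at Deacc2 (−1.51 ± 0.30), and CDKA;1, the central cell cycle kinase gene, was higher by 0.85, a rise. Against NonA the medians were −0.05 for replication and −0.70 for mitosis, with no member called. SPCH, the factor gene that starts the stomatal lineage, fell from 11.5, 10.1 and 12.5 CPM to 6.17, 4.9 and 5.96 CPM (−1.0 ± 0.25). It was 1 of 5 falls (20%) among 25 leaf cell type markers, near the share of 19.6% over all genes. Of these falls, 2 were left without ACC replicate 1 or without Deacc2 replicate 3. The summed level of these markers was 1039, 1063 and 1199 CPM at ACC and 949, 1345 and 665 CPM at Deacc2. The part of such cell types in the falls was not tested.

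Most flavonoid pathway genes fell, and light signalling genes divided. Of 34 flavonoid and anthocyanin genes 28 fell and 2 rose (median −3.75, −4.13 without ACC replicate 3). CHS, the gene of the entry enzyme, was at 1843, 1746 and 813 CPM at ACC and 27.6, 47.1 and 19 CPM at Deacc2, with ACC replicate 3 at the bottom of its group. CHI, for the chalcone isomerase that follows it, was at 183, 186 and 90.6 CPM at ACC and 9.7, 10.5 and 12.2 CPM at Deacc2 (−3.83 ± 0.40). MYBL2, a repressor gene of anthocyanin synthesis, rose, from 13.3, 15.6 and 25.9 CPM to 73.2, 102 and 54.1 CPM (2.06 ± 0.30), and so did TTG1, a cofactor gene of the regulators of the pathway (1.34 ± 0.36; 0.92 and not called without Deacc2 replicate 2). Of 40 light signalling and photoprotection genes 14 fell and 9 rose (5 without ACC replicate 1). HY5, a bZIP factor gene of light responses, was at 10.6, 9.81 and 4.94 CPM at ACC and 1.8, 1.44 and 3.12 CPM at Deacc2 (−2.0 ± 0.38), and its homologue HYH was at 34.8, 29 and 15.3 CPM at ACC and 1.37, 1.86 and 2.44 CPM at Deacc2 (−3.8 ± 0.45). ELIP1 and ELIP2, early light-induced protein genes, had the largest falls, by 8.48 and 8.84 on the log2 scale. The blue light receptor genes CRY1 and CRY2 rose, by 1.34 and 1.08.

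**Figure D3:**
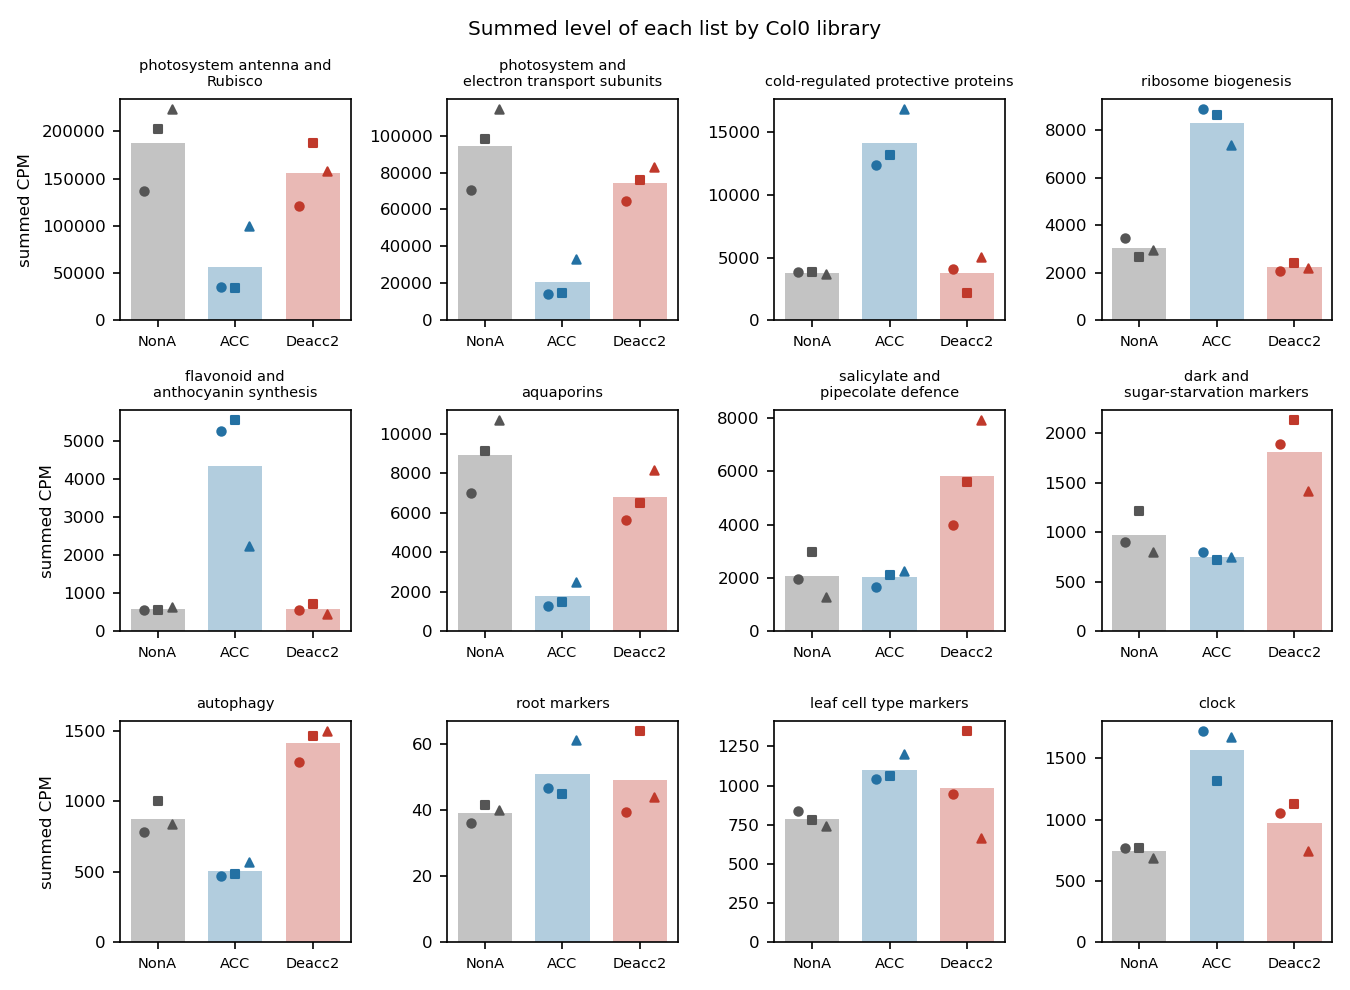
Summed CPM of the tested members of selected gene lists in each Col0 library at ACC, Deacc2 and NonA, on linear axes. Bars are group means, and the marker shapes are replicates 1, 2 and 3. ACC replicate 3 is at 99519 CPM for the antenna and Rubisco list, between the other ACC libraries (34036 and 34895 CPM) and the Deacc2 libraries (120854 to 187937 CPM).

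Many genes of cell expansion and water transport rose. Of 36 expansin and wall-loosening genes 18 rose and 2 fell (median 1.04; 19 and 3 without ACC replicate 3, and 11 rises without ACC replicate 1). EXPA8, an expansin gene, was at 0.982, 1.28 and 4.65 CPM at ACC and 162, 169 and 256 CPM at Deacc2 (6.38 ± 0.75), with ACC replicate 3 the highest of its group. EXPA1 rose from 56.9, 84.8 and 69.5 CPM to 518, 366 and 743 CPM (2.95 ± 0.41), and XTH7, a xyloglucan-modifying enzyme gene, by 2.56. Of 24 aquaporin genes 15 rose and 2 fell (median 1.53; 15 rises and 1 fall without ACC replicate 3). TIP2;2, a tonoplast aquaporin gene, was at 13.9, 15.6 and 9.33 CPM at ACC and 107, 142 and 181 CPM at Deacc2 (3.47 ± 0.40), and PIP2;2, a plasma membrane aquaporin gene, was at 9.37, 13.6 and 11.8 CPM at ACC and 79.8, 90.07 and 126 CPM at Deacc2 (3.09 ± 0.41). TIP1;2 reached the highest level among the named aquaporin genes in CPM, from 136, 146 and 294 CPM to 1205, 1586 and 1819.6 CPM (3.0 ± 0.42). Of 35 genes of wall synthesis 9 rose (25.7%, near the 21.8% over all genes) and 2 fell. The counts were 12 and 1 without ACC replicate 3, and 0 falls were left without Deacc2 replicate 1 or 3. UGE1, a UDP-glucose epimerase gene, was at 6.46, 7.05 and 10.6 CPM at ACC and 58.3, 59.3 and 47.9 CPM at Deacc2 (2.77 ± 0.24), and the tubulin genes TUB6 and TUB8 rose by 1.3 and 1.65. Among cuticle genes, 6 of 36 rose and 4 fell, shares below those over all genes (2 falls without Deacc2 replicate 3). The wax enzyme genes CER4, KCS1 and CER6 rose by 3.13, 1.86 and 1.55, and SHN3, a factor gene for cuticle synthesis, fell by 2.27 on the log2 scale.

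Rises outnumbered falls in the lists of the growth hormones brassinosteroid, auxin and gibberellin. Of 25 brassinosteroid genes 17 rose and 1 fell (median 1.15; 18 rises without ACC replicate 3). PRE1 and PRE6, small growth-promoting helix-loop-helix genes, were at 0.421, 0.754 and 0.918 CPM at ACC and 6.4, 3.22 and 4.88 CPM at Deacc2 and at 4.46, 6.4 and 13.2 CPM at ACC and 35.4, 29.3 and 40.8 CPM at Deacc2, respectively. BAS1, an enzyme gene that inactivates brassinosteroids, rose by 2.33, and BKI1, a receptor inhibitor gene, by 1.16. Of 45 auxin genes 23 rose and 4 fell (median 0.81; 22 and 4 without ACC replicate 3). IAA19, an early auxin response gene, was at 1.24, 1.25 and 2.38 CPM at ACC and 12.7, 9.81 and 16.4 CPM at Deacc2 (2.97 ± 0.47). SAUR22 and SAUR23, growth-related genes with near-identical neighbours that may share reads, rose by 3.71 and 3.73. The efflux carrier gene PIN4 rose from 23.4, 33.1 and 59.9 CPM to 126, 176 and 138 CPM (1.92 ± 0.38). Of 28 gibberellin genes 9 rose and 3 fell (10 and 5 without ACC replicate 3). The DELLA repressor genes GAI and RGL1 rose by 1.33 and 1.69, as did the receptor gene GID1C (1.58 ± 0.25). GASA6, a gibberellin-regulated gene, was at 1.38, 2.43 and 9.84 CPM at ACC and 271, 126 and 489 CPM at Deacc2 (6.0 ± 0.85), with 22.6% of its exonic bases shared with an opposite gene. Of 27 genes of the phytochrome interacting factors and of shade or warmth responses 13 rose and 3 fell (median 1.09; 15 rises without ACC replicate 3). PIF4, the factor gene of warmth-induced growth, was at 19.5, 20.24 and 44.2 CPM at ACC and 129, 132 and 120.2 CPM at Deacc2 (2.18 ± 0.30), and PIF8 fell from 37.6, 42.7 and 32.7 CPM to 11.2, 10.9 and 6.59 CPM (−1.98 ± 0.26). Cytokinin genes were called near the shares over all genes, with 7 rises (21.9%) and 6 falls (18.8%) among 32. There were 4 rises without ACC replicate 1 or 2, and 3 falls without Deacc2 replicate 2. The response activator genes ARR1 and ARR2 rose by 1.77 and 1.33, and ARR7, a response repressor gene, fell by 1.13.

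Most salicylate and pipecolate defence genes rose. Of 35 members 20 rose and none fell (median 1.8), with 15 rises without ACC replicate 3 and 12 without ACC replicate 1 or 2. The rises numbered 15 in the test against 1.5-fold and 7 to 25 over the other alternative runs. ICS1, for the main enzyme of salicylate synthesis, was at 16.7, 13.7 and 26.4 CPM at ACC and 62, 138 and 114 CPM at Deacc2 (2.47 ± 0.62). EDS5, the chloroplast exporter gene for its product, was at 8.48, 6.99 and 15.6 CPM at ACC and 29.7, 49 and 69.6 CPM at Deacc2 (2.25 ± 0.58). FMO1, for the enzyme that makes N-hydroxypipecolate, was at 0.337, 0.295 and 1.42 CPM at ACC and 9.91, 10.1 and 21.2 CPM at Deacc2 (4.24 ± 1.09). At NonA these 3 genes were at 36.3, 35.8 and 25.1 CPM, 24.3, 30.3 and 15.4 CPM and 3.97, 3.64 and 2.08 CPM. The differences from NonA were 1.7 ± 0.60, 1.08 ± 0.56 and 2.09 ± 1.00, none of them called (adjusted p = 0.2, 0.31 and 0.28). The summed level of the list was 1676, 2125 and 2279 CPM at ACC, 4004, 5589 and 7912 CPM at Deacc2 and 1970.4, 2974 and 1288 CPM at NonA, with Deacc2 above both others in all libraries and Deacc2 replicate 3 the highest. PR1, the classical marker of salicylate responses, lies outside the naming rule and was looked up for that role. It was at 261, 286 and 361 CPM at ACC and 965, 831 and 1956 CPM at Deacc2 and was not called (2.05 ± 1.27, adjusted p = 0.2), although the groups did not overlap.

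Jasmonate and ethylene genes changed in part, and abscisic acid genes were called near the shares over all genes. Of 34 jasmonate genes 10 rose and 2 fell, but 4 rises were left without ACC replicate 1 or Deacc2 replicate 1, and 5 without ACC replicate 2, and 1 fall without ACC replicate 2 or without Deacc2 replicate 1 or 3. AOC4 and OPR3, synthesis genes, rose by 1.54 and 1.11. Of 29 ethylene genes 12 rose and none fell (median 1.07; 7 rises without ACC replicate 1). ACO4, an ethylene-forming oxidase gene, was at 59.7, 61.2 and 70.6 CPM at ACC and 187, 279.8 and 183 CPM at Deacc2 (1.76 ± 0.28), and EBF1, for an F-box repressor of the pathway, rose by 1.08. Of 37 abscisic acid genes 9 rose (24.3%) and 6 fell (16.2%), against 21.8% and 19.6% over all genes (median 0.11). The counts were 7 and 8 without ACC replicate 3, and 3 falls were left without ACC replicate 1 or without Deacc2 replicate 1 or 2. The receptor genes PYR1 and PYL4 rose, PYR1 from 5.08, 9.28 and 10.2 CPM to 37.6, 31 and 27.1 CPM (1.96 ± 0.32) and PYL4 by 1.83. The kinase genes SNRK2.2 and SNRK2.3 rose by 1.6 and 1.96. ABI5, a bZIP factor gene, was at 4.55, 3.35 and 3.0 CPM at ACC and 0.676, 0.48 and 0.428 CPM at Deacc2 (−2.77 ± 0.38), and CYP707A1, for an enzyme that degrades abscisic acid, fell from 9.18, 7.68 and 9.01 CPM to 2.24, 1.48 and 1.43 CPM (−2.33 ± 0.33).

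Most autophagy genes rose, and part of the protein folding genes did. Of 31 autophagy genes 21 rose and none fell (median 1.12; 19 rises without ACC replicate 3). The rises numbered 16 in the test against 1.5-fold and 14 to 27 over the other alternative runs. ATG8F, for a ubiquitin-like protein of the autophagosome membrane, was at 17.5, 16 and 24.6 CPM at ACC and 119, 83.6 and 124 CPM at Deacc2 (2.49 ± 0.33), and NBR1, a cargo receptor gene, was at 122, 134 and 189.9 CPM at ACC and 422, 578 and 463 CPM at Deacc2 (1.71 ± 0.29). At NonA NBR1 was at 193, 248 and 161 CPM, below all Deacc2 libraries (Deacc2 minus NonA 1.28 ± 0.28, adjusted p = 0.16). Of 23 genes of folding in the endoplasmic reticulum 9 rose and none fell (median 0.67; 6 rises, 1 fall and a median of 0.25 without Deacc2 replicate 2). BIP3, a stress-induced lumenal chaperone gene, was at 0.253, 0.984 and 1.17 CPM at ACC and 9.57, 23.8 and 15.4 CPM at Deacc2 (4.31 ± 0.99), and CRT3, a calreticulin gene, was at 66.3, 62.5 and 90.7 CPM at ACC and 213, 438 and 335 CPM at Deacc2 (2.17 ± 0.46). TIN1, another stress-induced gene of this compartment, rose by 3.83. Deacc2 replicate 2 had the highest summed level of this list, at 4735.9 CPM against 2306.2 and 2788.5 CPM in the other Deacc2 libraries and 2082 to 2845.6 CPM at ACC. Of 32 heat shock factor and chaperone genes 9 rose and 3 fell (7 and 5 without ACC replicate 3; 5 falls without Deacc2 replicate 1). Of 61 genes with a heat shock protein as their annotated product, which include members of these lists, 10 rose and 17 fell (median −0.34). HSFB1, for a heat shock factor that represses transcription, was at 14.9, 18.5 and 17.63 CPM at ACC and 56.5, 43 and 149 CPM at Deacc2 (2.28 ± 0.60), and ROF1, a chaperone-binding immunophilin gene, fell from 145, 119 and 86.9 CPM to 30.8, 47.3 and 32 CPM (−1.67 ± 0.39).

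Genes of the hypoxia and oxygen sensing list changed in both directions. Of 32 members 11 rose, 4 fell and 17 were not called (10 rises and 4 falls without ACC replicate 3). ADH1, the alcohol dehydrogenase gene, was at 45.7, 50.2 and 51.2 CPM at ACC and 6.76, 5.9 and 5.13 CPM at Deacc2 (−3.05 ± 0.40), and PDC1, for the pyruvate decarboxylase before it, was at 20.3, 13.8 and 23.6 CPM at ACC and 1.33, 2.96 and 0.478 CPM at Deacc2 (−3.59 ± 0.56). SUS1, a sucrose synthase gene, fell from 265, 276 and 423 CPM to 79.3, 79.2 and 64.3 CPM (−2.11 ± 0.39). HUP54, a hypoxia-induced gene of unknown function, had the largest rise among genes that met the naming rule, with 0.533, 0.459 and 1.26 CPM at ACC and 106, 121 and 116 CPM at Deacc2 (7.19 ± 0.74). RAP2.3, an oxygen-sensitive ERF factor gene, was at 24.7, 17 and 52.1 CPM at ACC and 300.4, 149.7 and 180.0 CPM at Deacc2 (2.75 ± 0.55), and PCO4, a gene of the enzymes that mark such factors for breakdown, rose by 1.54. In mitochondria, TIM17-1, a protein import subunit gene, was at 0.0842, 0.295 and 0.503 CPM at ACC and 9.61, 7.19 and 17.39 CPM at Deacc2 (5.17 ± 0.63), and AOX1D, an alternative oxidase gene, was at 0.309, 0.361 and 0.252 CPM at ACC and 4.35, 5.48 and 7.55 CPM at Deacc2 (4.25 ± 0.92). They were 2 of 5 rises and 2 falls among 16 genes of the mitochondrial retrograde response (3 and 3 without ACC replicate 3).

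Antioxidant genes changed in both directions, isoform by isoform. Of 39 members 13 rose and 11 fell (8 rises without ACC replicate 1 and 7 without ACC replicate 2). CAT3, a catalase gene with an evening peak, was at 398, 432 and 905 CPM at ACC and 5255, 6736 and 3074 CPM at Deacc2 (3.12 ± 0.40), with ACC replicate 3 the highest of its group. FSD2 and FSD3, chloroplast iron superoxide dismutase genes, fell by 1.92 and 1.58 on the log2 scale. SAPX, a stromal ascorbate peroxidase gene, was at 450.1, 502 and 392.1 CPM at ACC and 113, 154 and 173 CPM at Deacc2 (−1.61 ± 0.26), while TAPX, its thylakoid-bound relative, was at 56, 56.9 and 109 CPM at ACC and 161, 221 and 169.5 CPM at Deacc2 (1.31 ± 0.31). GR1, the glutathione reductase gene, fell from 283, 312 and 206 CPM to 67.2, 138 and 82.5 CPM (−1.48 ± 0.34). In the clock list 8 of 31 genes fell and 3 rose (6 falls without ACC replicate 3, 1 rise without ACC replicate 1). CCA1 and LHY, the morning factor genes, were at 89.3, 79.8 and 84.4 CPM at ACC and 4.1, 14.9 and 5.66 CPM at Deacc2 and at 102, 92.4 and 92.7 CPM at ACC and 3.49, 14.2 and 7.85 CPM at Deacc2, respectively (−3.36 ± 0.47 and −3.49 ± 0.60). The labels used here state no hour of harvest. ZTL, a blue light sensor gene of the clock, rose by 0.70.

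Metal and sulfur genes changed in smaller groups. Of 35 iron and phosphate genes 8 fell (22.9%) and 4 rose (11.4%), the same counts as without ACC replicate 3. The share of falls was near the 19.6% over all genes, and that of rises was below the 21.8%. The ferric reductase genes FRO3 and FRO6 rose, FRO3 with 3.51, 2.95 and 3.8 CPM at ACC and 31.3, 41.5 and 33.4 CPM at Deacc2 (3.37 ± 0.33) and FRO6 with 19, 16.3 and 44.1 CPM at ACC and 175, 237 and 92.1 CPM at Deacc2 (2.66 ± 0.44). FER3, a gene of the iron store ferritin, was at 237, 238 and 348 CPM at ACC and 42.5, 43.2 and 49.1 CPM at Deacc2 (−2.61 ± 0.33). Of 39 sulfur and glucosinolate genes 10 fell (25.6%) and 4 rose (10.3%), with 9 and 5 without ACC replicate 3. MYB29, a regulator gene of aliphatic glucosinolates, fell from 35.4, 35.8 and 20.8 CPM to 13.1, 7.73 and 8.46 CPM (−1.65 ± 0.40), as did MAM3 and CYP79F2, which act in chain elongation and core synthesis of that class (by 1.65 and 1.54). MYB51, a regulator gene of indolic glucosinolates, rose from 4.27, 3.35 and 11 CPM to 25.5, 33.3 and 48.2 CPM (2.51 ± 0.56), as did CYP83B1 of the same branch (1.49 ± 0.32). Flowering time genes had 5 rises (14.3%) and 4 falls (11.4%) among 35, both below the shares over all genes. No rise was left without ACC replicate 2 or Deacc2 replicate 3.

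Several of the largest changes fell outside these pathways. Among the 20 largest rises were BBD1, a nuclease gene of basal defence, at 26.6, 24.9 and 53.9 CPM at ACC and 829, 808 and 734 CPM at Deacc2 (4.49 ± 0.37), and J8, a chloroplast DnaJ-type chaperone gene, at 7.35, 10.4 and 9.56 CPM at ACC and 280.3, 148 and 184 CPM at Deacc2 (4.49 ± 0.63), with 22% of its exonic bases shared with an opposite gene. GLP9, a germin-like protein gene, rose by 4.45, and AT1G14250, a gene of the GDA1/CD39 nucleoside phosphatase family, by 5.56. Among the 20 largest falls were AT1G04570, a gene of the major facilitator transporter family, at 93.2, 67.7 and 41 CPM at ACC and 1.25, 1.88 and 2.29 CPM at Deacc2 (−5.22 ± 0.56), and AT5G62210, of an embryo-specific protein family, at 213, 199 and 122 CPM at ACC and 4.29, 5.56 and 5.64 CPM at Deacc2 (−5.11 ± 0.48). AZI1, a gene of systemic defence priming, was among the 10 largest losses of CPM, from 1099, 683 and 1978 CPM to 54.2, 75.6 and 57.9 CPM (−4.32 ± 0.62). By product family, rises outnumbered falls among cytochrome P450 genes (53 and 17 of 152), ERF/AP2 factors (34 and 10 of 114), receptor-like kinases (40 and 14 of 128), peroxidases (28 and 8 of 74), pectin esterases (20 and 5 of 53) and WRKY factors (19 and 4 of 59). MYB factors rose in 16 (15.8%) and fell in 22 (21.8%) of 101 cases. Proteasome subunits rose in 1 (2.38%) and fell in 10 (23.8%) of 42. In both families the share of falls was near the 19.6% over all genes, and that of rises was below the 21.8%.

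The level reached after 2 days was set beside that of never-chilled plants. NonA plants were harvested at 28 days, before the cold, so Deacc2 plants were also older. Age and the past cold cannot be told apart in this comparison. Deacc2 against NonA shares the Deacc2 libraries with the main comparison, so values are given side by side only. Of the 20679 genes 1 (0.00484%) was called by edgeR, while 3620 had an unadjusted p under 0.05 and the groups did not overlap for 24.9%. DESeq2 called 224 genes, 99 higher and 125 lower at Deacc2. With a term for the replicate number edgeR called 121 genes, 48 higher and 73 lower. With that term and a correction for transcript length it called 265, 137 higher and 128 lower. The gene called by edgeR without that term, AT5G37540, encodes an aspartyl protease family protein. It was at 3.65, 3.74 and 3.94 CPM at ACC and 11.6, 21.1 and 18.1 CPM at Deacc2, and at 6.38, 5.77 and 3.83 CPM at NonA. Deacc2 minus NonA was 1.67 ± 0.28 (adjusted p = 0.049). Without that term, edgeR called 0 genes when Deacc2 replicate 2, Deacc2 replicate 3 or any NonA replicate was left out. A p above the threshold does not show equal levels: medians of Deacc2 minus NonA were 1.03 for salicylate and pipecolate defence, 0.96 for folding in the endoplasmic reticulum, 0.86 for starvation markers, 0.43 for autophagy, −0.70 for mitosis and −0.52 for aquaporins. The same medians from ACC to Deacc2 were 1.8, 0.67, 2.1, 1.12, −0.49 and 1.53.

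The same comparison was made in both mutant lines. In mbf1c 8455 genes (40.9%) were called between ACC and Deacc2 and in jub1 7897 (38.2%). Calls with the same sign in Col0 and mbf1c numbered 7336, which is 85.6% of the Col0 calls and 86.8% of the mbf1c calls, and those shared with jub1 numbered 6908, which is 80.6% and 87.5%. No gene was called in opposite directions. These overlaps are not independent replications, because same-numbered Col0 and mbf1c libraries deviated from their group means together (r across genes of 0.561, 0.711 and 0.751 at Deacc2), as did Col0 and jub1 libraries (0.195, 0.459 and 0.306). The difference of the response between line and Col0 was called for 0 genes with edgeR in both mutants (84 and 98 genes at an unadjusted p under 0.05), and DESeq2 also called 0 in both. Col0 itself changed in the mutated genes: JUB1 was at 0.505, 0.722 and 1.45 CPM at ACC and 6.36, 8.27 and 10.9 CPM at Deacc2 (3.21 ± 0.66) and MBF1C at 0.73, 0.754 and 0.666 CPM at ACC and 4.14, 2.78 and 5.56 CPM at Deacc2 (2.53 ± 0.36), with 25.9% of the exonic bases of MBF1C shared with an opposite gene. The list medians in Col0, mbf1c and jub1 were −2.26, −2.24 and −2.26 for ribosome biogenesis, 1.8, 1.35 and 1.91 for salicylate and pipecolate defence, 1.04, 1.42 and 0.75 for expansins and wall loosening, and 0.35, −0.10 and 0.078 for the mitochondrial retrograde response. The falls of DNA replication genes numbered 18, 19 and 11, and those of mitosis genes 11, 5 and 3, in that order. Whether these list counts differ between lines was not tested.

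**Figure D4:**
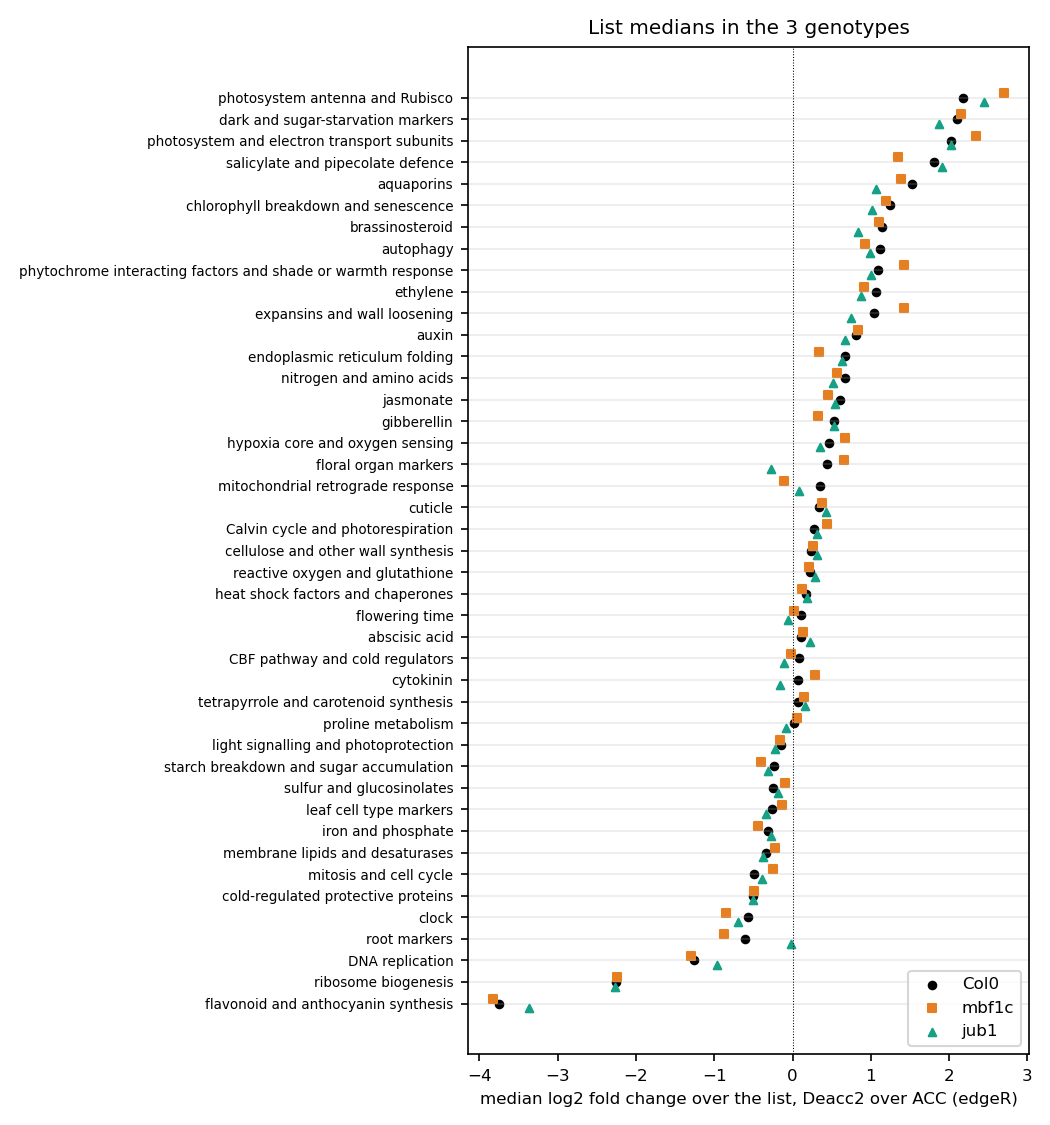
Median log2 difference of Deacc2 against ACC for each gene list in Col0, mbf1c and jub1 (1 point a line). The medians are −3.75, −3.82 and −3.37 for flavonoid synthesis, and 0.67, 0.33 and 0.63 for endoplasmic reticulum folding.

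The short sequence elements were also counted over all calls. The ABRE core ACGTG was found in 23.3% of all 20546 windows, in 26.3% of genes that rose and in 21.1% of genes that fell, and in 46.2% of the 80 windows of genes that fell at least 16-fold. The G-box CACGTG, which contains the ABRE core, was found in 7.28% of all windows and in 22.5% of those 80. ABRE cores were most frequent in the lists of endoplasmic reticulum folding (56.5% of 23 windows), the clock (54.8% of 31) and cold-regulated proteins (54.5% of 22), which moved in different directions. The evening element AAAATATCT was found in 19.4% of clock windows and in 2.49% of all. I-box cores were found in 15.3% of genes that rose and 10.1% of genes that fell, and sugar elements in 16.9% and 12.5%. These shares are descriptions without a test.

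**Figure D5:**
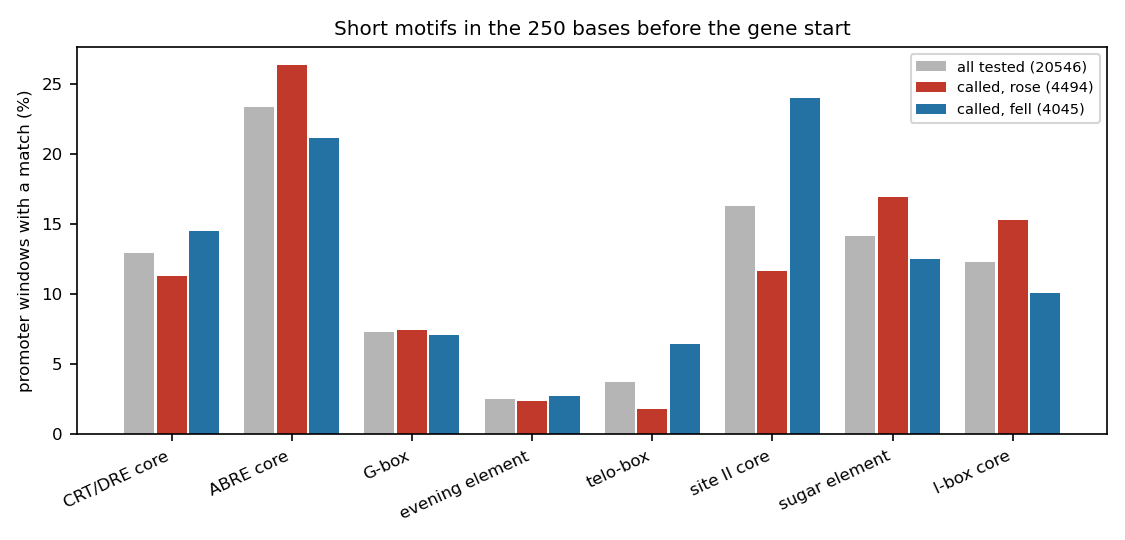
Share of 250-base promoter windows that hold each sequence element, in percent, for all tested genes and for genes that rose or fell from ACC to Deacc2 in Col0. The site II core (16.3%, 11.6% and 24.0%) and the telo-box (3.69%, 1.82% and 6.40%) were more frequent among falls, and the I-box core (12.3%, 15.3% and 10.1%) among rises.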

How the data were processed

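The authors deposited raw counts per gene for each library, unstranded and not normalized. Per the submitters' processing notes, STAR 2.6.0c, the TAIR10 build and DESeq2 were used; the labels name the BGISEQ-500 workflow and Trizol RNA. Rows that name no gene were left out, and genes held 89.8% to 92.9% of the rows' sum in the 6 libraries. Of 34262 genes, 20679 passed edgeR's filterByExpr; 132 tested IDs have no annotation. All 36 libraries in 12 groups entered a single edgeR 4.0.16 quasi-likelihood fit (R 4.3.3, limma 3.58.1, TMM scaling), with Benjamini-Hochberg adjustment over all tested genes at 0.05. Scripts were tested on simulated data. CPM are scaled by TMM. DESeq2 1.42.0 was an alternative, and the others were a fit of the compared groups alone, RLE scaling, no filter, a replicate block, length corrections, removal of organellar genes, the first strand column, a test against 1.5-fold, and each replicate or library left out. Members and gene lists were chosen with earlier results of these data known; 1276 genes of 43 lists matched the annotation, 1221 were tested, and 16 symbols matched none. The genes named are taken from the 20 largest rises and falls among called genes with at least 5 CPM and no overlap, up to 6 called list members per direction by adjusted p, the 10 largest gains and losses of CPM, and both mutated genes; exceptions are marked. A called gene that this rule covers is not reported here. Promoter windows are the 250 bases before the annotated start in TAIR10.1, for 20546 tested genes. Replicates of each group differed by more than sampling noise, so none was merged.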

Additional observations from a re-analysis of the deposited data

How the results depend on the processing

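For Deacc2 against ACC in Col0 (8568 genes called), the count was 8787 with DESeq2, 8605 with RLE scaling, 8070 without the filter, 8645 with the first strand column, 7998 with only the compared groups, 8553 without organellar genes, 9829 with the length correction and 10584 with that correction and the replicate block. Tested against a 1.5-fold change, 4987 genes were called (2685 higher, 2302 lower). Leaving out a replicate number or a single library gave 4958 to 8231 calls. Of the 8568 calls, 99.1% kept their call and direction with DESeq2, 89.6% with the first strand column (11 were called in the opposite direction) and 95.5% with the length correction. Without ACC replicate 3, 89.7% were kept, the highest share when a single library was left out. The lowest such shares were 72.3% without ACC replicate 1 and 75% without Deacc2 replicate 3. With a replicate number left out of all groups, 57.2% (replicate 1), 77.9% (replicate 2) and 60.5% (replicate 3) were kept. Of 373 genes that the naming rule covers, BHLH101, an iron-deficiency factor gene at very low counts, reversed: 3.36, and −0.41 with the first strand column. The cause was not tested. For Deacc2 against NonA (1 gene called), DESeq2 called 224 genes (99 higher, 125 lower), the replicate block 121 (48 and 73) and the length correction with the block 265 (137 and 128). RLE scaling, the first strand column, no filter, only the compared groups and the 1.5-fold test each called 0, and leaving out replicates gave 0 to 1. Neither difference of response between a mutant and Col0 had a call in any alternative run (0 genes). Replicate numbers, marked Exp in the titles, are shared between groups. Same-numbered ACC and Deacc2 libraries deviated with r of 0.225, −0.106 and 0.260 across genes. For Deacc2 and NonA libraries r was 0.245, −0.039 and 0.314. Same-numbered Col0 and mbf1c libraries deviated together (0.561, 0.711 and 0.751 at Deacc2). These values do not settle whether the numbers pair the ACC, Deacc2 and NonA libraries. With the replicate block 9426 genes were called for Deacc2 against ACC (4876 higher, 4550 lower). With 3 libraries a group, and ACC replicate 3 between the groups, small differences may have been missed, although some changes under 2-fold were called. Counts of reads also limit low genes, and unstranded counting limits genes that overlap others.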
